A study of Mus musculus with 33 samples.

Results

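The cytosolic ribosomal protein genes were described in bulk RNA-seq counts of mouse mammary tumours. The members were the genes whose symbol is Rpl, Rps or Rplp with a number and at most a short suffix, and that had at least 100 counts summed over all libraries. Of 54532 genes in the table, 88 matched this pattern and 85 had enough counts. Of the other 3, Rpl3l had 47 counts and Rpl10l and Rps12l1 had 0. The 85 members were 76 core genes, 46 of the large and 30 of the small subunit, and 9 paralogs or other copies. The paralogs were Rpl22l1, Rpl7l1, Rps27l and Rpl39l, and the GENCODE M21 annotation types Rps3a2, Rps3a3, Rpl6l, Rpl32l and Rps4l as pseudogenes.

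The series studies low molecular weight cyclin E and inhibition of PKMYT1, which keeps CDK1 inactive by phosphorylating it, in triple-negative breast cancer. Every library is labelled as mammary tumour of genotype FVB, an inbred mouse strain, and per the labels the tumours had been transplanted. Titles ending in _7 gave 3 vehicle tumours (VEH_7) and 4 tumours given the PKMYT1 inhibitor RP-6306 at 20 mg/kg (M20_7). Titles without that suffix gave 4 vehicle tumours (VEH) and 11 tumours given RP-6306 at 20 mg/kg (MYT). No treatment is given for 5 more tumours with SPON in the title and 5 with WT. The labels give neither the tumour line nor the treatment period of any sample, so within a comparison RP-6306 and a difference in tumour line cannot be told apart. They also do not say which of SPON and WT is the cyclin E or the PyMT tumour of the design text. One further library, titled as vehicle and labelled as treated, entered no comparison.

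A cytosolic ribosome is built from a small subunit, which reads the messenger RNA, and a large subunit, which forms the peptide bond. Each holds many different proteins that are made in matched amounts, and their messenger RNAs start with a tract of pyrimidines through which mTORC1 controls their translation. Processed copies of these messenger RNAs have been inserted all over mammalian genomes, so that a short read from a ribosomal protein gene often matches its copies as well.

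Libraries of the VEH_7 and M20_7 groups held 26517748 to 34637096 counts and all other libraries 13701115 to 20105407. Summed CPM of 8 epithelial markers was only 21.6 to 84.0 in VEH_7 and 30.1 to 64.4 in M20_7, against 614.7 to 1805 in VEH and 3778 to 10716 in the MYT, SPON and WT libraries. CPM is a gene's count relative to the size of its library, here after TMM scaling over the 32 grouped libraries. The 8 mesenchymal markers summed to 28249 to 50915 CPM in the VEH_7 and M20_7 libraries, so the markers of the labelled tissue's epithelium were low there. Mitochondrial genes took 20.0% and 23.5% of the counts in SPON replicates 1 and 5 and at most 7.75% elsewhere. Nothing in the labels says that samples of a group came from different mice, and the p-values then reflect only how much these samples vary.

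The first thing the counts showed was where they lie. Alignment of each core coding sequence to annotated mouse transcripts found 976 copies at 90% identity or more over at least 50% of the coding sequence, of which 956 were typed as pseudogenes and 19 as protein coding. Copies were found for 73 of the 76 core genes, and Rpl8 and Rpl41 were among the 3 with none. Over all 33 libraries, 13355177 counts lay on the core genes and 11201834 on their copies, so the core genes held 54.4% of the 2 together. In 41 families, a family being a core gene with its copies, the gene itself held less than 50% of the family's counts, and in 21 less than 10%.

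The genes with the smallest own share include well-known ones. Rps7, a small-subunit gene mutated in Diamond-Blackfan anaemia, held 0.652% of its family's counts, and the copy Gm6472 held 473616. Rps27 held 1.34%, and its copy Rps27rt held 298787 counts. Rps6, whose protein is the classical substrate of the S6 kinases, had 6244 counts of its own (1.89%) against 320767 on the copy Rps6-ps4. Rpl5, which binds 5S rRNA, held 3.68%, with 351822 counts on Gm15500. At the other end, Rplp0, the base of the ribosomal stalk, held 76.6%, Rpl7 86.2% and Rpl4 94.9% of the counts of their families.

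Stretches of 4 coding sequences with their leading copies show how alike a gene and its copy are. They are given 5′ to 3′ on the coding strand and were read from GENCODE M21 transcripts on GRCm38, with positions counted from 1 at the first base of the coding sequence. Rps6 (chr4:86854660-86857412, minus strand) and Rps6-ps4 (chr2:75191073-75191822, minus strand) were identical over all 747 coding bases, and so were Rpl10 (chrX:74270812-74273135, plus strand) and Rpl10-ps3 (chr9:50344201-50344968, minus strand, typed protein coding) over 642. For the Rps6 and Rpl10 pairs the capitals mark the 5 bases on each side of an exon junction of the gene. Rps7 (chr12:28630854-28635953, minus strand) and Gm6472 (chrX:152909505-152910155, minus strand) differed by T26G, G48A and G123T. Rpl19 (chr11:98026710-98030492, plus strand) and Rpl19-ps11 (chr8:19492936-19493526, plus strand) differed by G191A. For the Rps7 and Rpl19 pairs the capitals mark the differing bases within the stretch.
Rps6: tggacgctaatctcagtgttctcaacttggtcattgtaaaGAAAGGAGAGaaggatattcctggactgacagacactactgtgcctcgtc
Rps6-ps4: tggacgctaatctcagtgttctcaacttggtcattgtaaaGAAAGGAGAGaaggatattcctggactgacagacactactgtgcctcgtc
Rpl10: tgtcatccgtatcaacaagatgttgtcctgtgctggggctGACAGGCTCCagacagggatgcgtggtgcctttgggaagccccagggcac
Rpl10-ps3: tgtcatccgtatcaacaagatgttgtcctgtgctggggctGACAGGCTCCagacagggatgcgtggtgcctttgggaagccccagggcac
Rps7: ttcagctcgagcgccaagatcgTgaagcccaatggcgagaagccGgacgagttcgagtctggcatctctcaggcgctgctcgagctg
Gm6472: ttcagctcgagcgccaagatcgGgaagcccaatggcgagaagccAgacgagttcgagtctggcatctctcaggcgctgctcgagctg
Rpl19: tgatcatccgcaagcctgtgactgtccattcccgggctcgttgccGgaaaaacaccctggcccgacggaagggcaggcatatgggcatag
Rpl19-ps11: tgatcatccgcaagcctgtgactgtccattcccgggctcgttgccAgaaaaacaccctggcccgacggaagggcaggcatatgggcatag

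In the identical pairs, no read that lies within the coding sequence can be assigned to the gene or the copy by its bases. In the Rpl19 pair, a read that lies within the coding sequence has to cover position 191 to tell them apart. Every window of 50 bases of the coding sequence was found in a transcript of another gene for 27 of the 76 core genes. Across the 76 core genes, the share of such windows ran against the gene's own share of the family's counts (Spearman rho -0.62) and against its counts per coding base (rho -0.70). These correlations are across genes, which share their libraries and base composition. The sources used here do not give how the authors' counting treated reads that match several places.

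**Figure D1:**
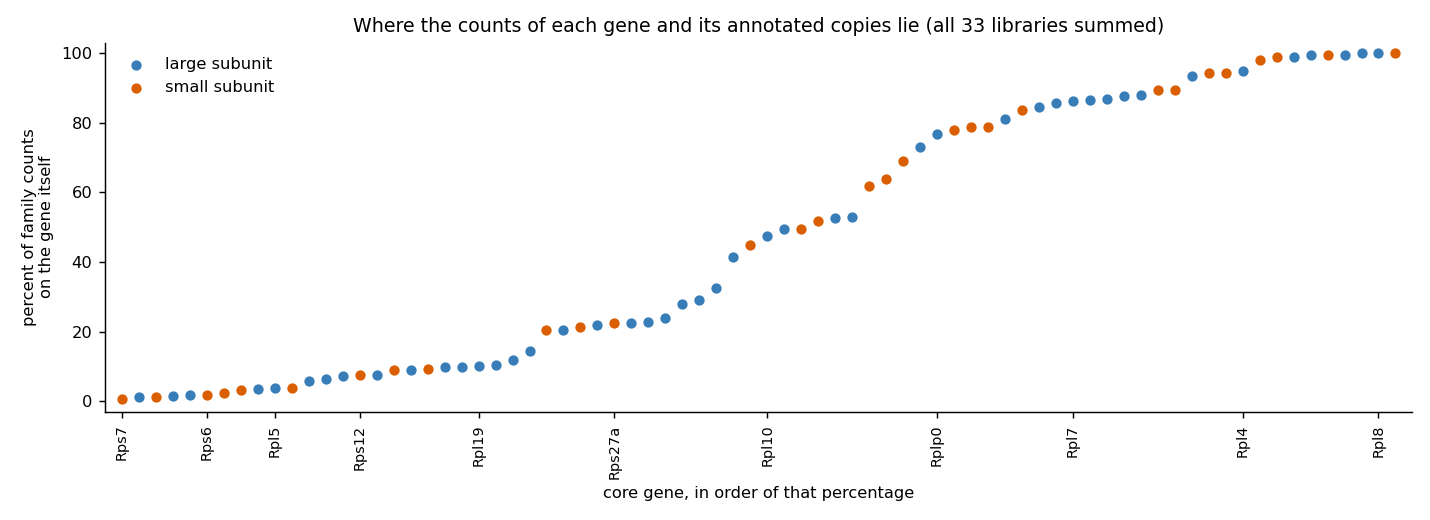
Each of the 76 core genes is a point, placed from left to right by the percentage of its family's counts (gene plus annotated copies, all 33 libraries summed) that lay on the gene itself, on the vertical axis. The lowest point is Rps7 at 0.652%, 41 points lie under 50%, and both subunits (colours) are spread over the whole range; some of the genes are labelled.

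Adding the copies changed the order of the genes by level. On the genes themselves, counts ranged from 1246 for Rpl29 to 1035477 for Rplp0, an 831-fold range. With copies added, the lowest family was Rps29 at 4259 and the highest remained Rplp0 at 1351340, a 317-fold range. With copies added, 10 families were under 50000 counts. Per kilobase of coding sequence and with copies summed, mean CPM over the grouped libraries was highest for Rpl41 (4142), Rplp1 (2976), Rps26 (2783), Rpl12 (2592) and Rplp0 (2247). It was lowest for Rpl29 (18.9), Rps29 (44.4), Rpl38 (62.7), Rpl35a (63.0) and Rpl15 (71.5). Rpl12 moved most in this list, since its own counts gave 161.9 CPM per coding kilobase. All results below are given for the counts as deposited and, where it matters, with each family summed. Summing was chosen after the copies' counts had been seen.

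The summed level of the 76 core genes was lowest in both groups titled _7 and in VEH, higher in MYT, and highest in the 2 untreated groups. Summed CPM was 13317, 15370 and 16699 in the 3 VEH_7 libraries and had a lowest, median and highest value of 14063, 15122 and 21137 in M20_7. It ran from 15087 to 18466 (median 16512) in VEH and from 17705 to 30603 (median 20217) in MYT. In SPON it ran from 22380 to 48638 (median 27127) and in WT from 20277 to 32891 (median 28557). The VEH and MYT ranges overlapped between 17705 and 18466, and those of VEH_7 and M20_7, and of SPON and WT, overlapped as well. As these are bulk samples, fewer cells of a type and less RNA per cell cannot be told apart.

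Single libraries stood out within groups, and they did so for most core genes at once. In M20_7, replicate 2 was the highest library for 59 of the 76 core genes. It also had 67.0 summed CPM of 5 B cell markers against 1.79 to 3.88 in the other 3 M20_7 libraries, and the part of that difference in the members' levels was not tested. In SPON, replicate 1 was highest for 52 and replicate 5 for 18 of the 76, and replicate 2 was lowest for 49. SPON replicates 1 and 5 are the libraries with 20.0% and 23.5% mitochondrial counts, and replicate 5 also had 3120 summed CPM of 5 erythroid markers against 48.7 to 238.2 in the other 4. Without TMM scaling the core genes held 3.64% of all counts in SPON replicate 1, 2.82% in replicate 5 and 2.40 to 2.68% in the other 3, so replicate 5 then stood only slightly above them. The part of the mitochondrial counts in the members' levels was not tested. In WT, replicate 2 was highest for 49 and replicate 4 lowest for 59. In MYT, replicates 7 and 9 were highest for 30 and 32. The median SD of a member on the log2(CPM + 1) scale was 0.597 in SPON and 0.353 in WT, and 0.225 to 0.311 in the other groups. Over all 15078 genes with a mean CPM of at least 1 it was 0.569 in SPON, 0.322 in WT and 0.173 to 0.28 elsewhere.

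**Figure D2:**
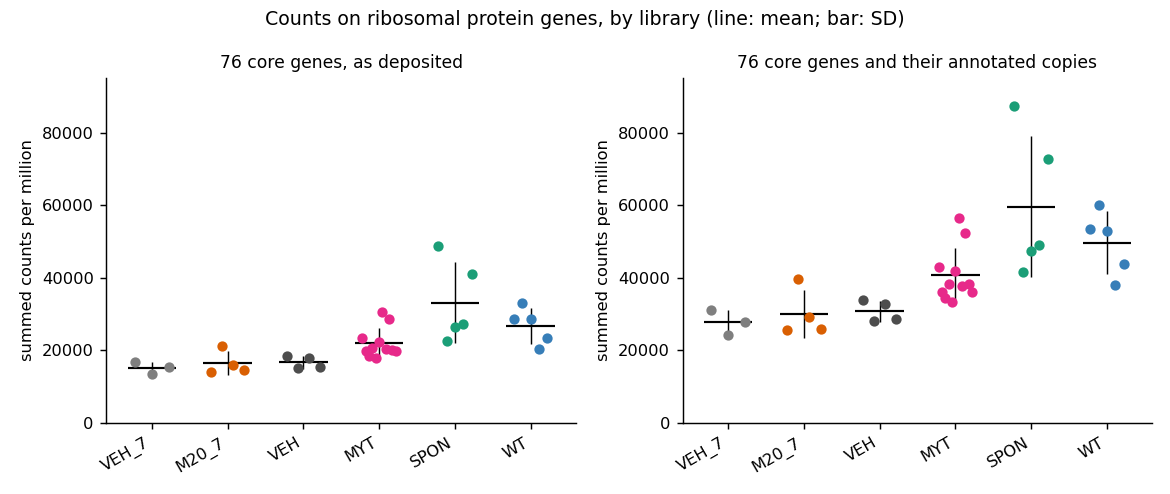
Each point is 1 library, placed by group on the horizontal axis, and the vertical axis is the summed CPM of the 76 core genes as deposited (left) and with their annotated copies (right); lines are means and bars SDs. In both panels MYT lies mostly above VEH, and SPON replicates 1 and 5, which have high mitochondrial counts, lie far above the other 3 on this TMM scale; the core genes held 52.6 to 56.6% of the summed CPM of both in every library.

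For RP-6306 against vehicle in the set titled _7, no member passed the test. The background is 0% of 16699 genes tested with edgeR's quasi-likelihood test at an adjusted p under 0.05, with 1033 genes and 1 member at an unadjusted p under 0.05. DESeq2 called 55 of all genes. Members leaned to higher values in M20_7, with 74 of 84 above 0 and a median log2 difference of 0.15, against 0.01 over all genes. Without M20_7 replicate 2 the median was 0.03, with 51 of 84 above 0.

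None of the named members passed, with log2 fold changes from -0.12 (Rps6) to 0.87 (Rps4l, edgeR adjusted p = 0.823). Rplp0 was at 1890, 1478 and 1604 CPM in VEH_7 and at 1562, 2150, 1570 and 1546 in M20_7, so the groups overlapped (log2 fold change 0.06 ± 0.155 SE, edgeR adjusted p = 0.964). Rpl7 was at 755.7, 651.1 and 625.2 CPM in VEH_7 and 602.0, 891.0, 699.4 and 614.7 in M20_7 (log2 fold change 0.07 ± 0.157 SE, edgeR adjusted p = 0.96). The smallest adjusted p of any member, 0.797, was that of Rpl39 (log2 fold change 0.51 ± 0.228 SE) and of Rpl10 (0.31 ± 0.143 SE), an exit-tunnel protein and a late-joining protein of the large subunit.

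In the set without the suffix, many ribosomal protein genes were higher in the tumours given RP-6306. Of 84 members tested, 50 were higher and 1, Rpl4, was lower in MYT than in VEH. In 1 fit over all 32 grouped libraries 31 were higher, and with single libraries left out 36 to 54. The background is 30.5% of all genes higher and 29.0% lower, and the members' higher share was above that background, and their lower share was below it. The members' median log2 fold change was 0.51 and that of all genes 0.04. With copies summed, 49 of 80 were higher and 1 was lower, against backgrounds of 30.7% and 29.2%. Among the 76 core genes, 41 were called both ways. Rpl13, Rpl21, Rpl9, Rps12 and Rps28 were called only as deposited, and Rpl12, Rpl17, Rpl23a, Rpl32, Rpl5, Rps16 and Rps6 only with copies summed.

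Both subunits took part in this rise. Of the 46 large-subunit core genes, 24 were higher and 1 lower, with a median log2 fold change of 0.44. Of the 30 small-subunit core genes, 21 were higher and 0 lower, with a median of 0.55. By role, all 3 genes at the entry of the messenger RNA channel (Rps2, Rps3 and Rps9) and all 3 at its exit and platform (Rps14, Rps26 and Rps28) were higher. With copies summed 2 of the latter 3 were, since Rps28 was called only as deposited. Around the exit of the growing peptide, 4 of 8 were higher, and 6 of 8 with copies summed. Of 9 genes mutated in Diamond-Blackfan anaemia, an inherited failure of red cell production, 5 were higher. The background is again 30.5% of all genes higher and 29.0% lower. The higher share of both subunits was above it and their lower share below it. Against that background, role lists of 3 to 9 genes are too small for their counts to say much about a role.

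Rpl37a, a small zinc-binding protein of the large subunit, had the largest change. It was at 20.1, 12.8, 14.3 and 10.4 CPM in the 4 VEH libraries and at a lowest, median and highest of 21.1, 32 and 45.8 in the 11 MYT libraries. The groups did not overlap, and the log2 fold change was 1.27 ± 0.208 SE (2.42-fold, edgeR adjusted p = 5.7e-05). Rpl7, a large-subunit protein whose gene holds most of its family's counts, was at 653.2, 552.2, 620.8 and 633.1 CPM in VEH and at 1001, 1129 and 1615 (lowest, median, highest) in MYT. Every MYT library was above every VEH library (log2 fold change 1.02 ± 0.143 SE, 2.02-fold, edgeR adjusted p = 1.2e-05).

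Rps12, a small-subunit protein, was also separate, at 29.3, 16.7, 23.7 and 21.8 CPM in VEH and 30.1, 39.6 and 80.9 (lowest, median, highest) in MYT. Its log2 fold change was 0.99 ± 0.242 SE (edgeR adjusted p = 0.00209). Most of its family's counts lay on Rps12-ps3, and with copies summed the log2 fold change was 0.43 and the adjusted p 0.0712, so this call belongs to the deposited count only. Rpl24, a protein that joins the large subunit late in assembly, was low in counts of its own, at 2.21 ± 0.485 CPM (SD, n = 4) in VEH and 4.18 ± 1.10 (SD, n = 11) in MYT (log2 fold change 0.94 ± 0.256 SE, edgeR adjusted p = 0.00457). The gene held only 1.24% of its family's counts, with 136357 on the copy Gm9385. The ranges of Rpl24 as deposited overlapped. With copies summed it was at 191.5 to 259.7 CPM in VEH and 263.5 to 478.6 in MYT.

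Rpl4, a large-subunit protein that lines the exit tunnel, went the other way. It was at 1217, 1206, 1462 and 1241 CPM in VEH and at 820.6, 935.4 and 1219 (lowest, median, highest) in MYT. The ranges overlapped at their edge, and the log2 fold change was -0.38 ± 0.115 SE (edgeR adjusted p = 0.00893). Since Rpl4 itself held 94.9% of its family's counts, summing copies left the value at -0.38.

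The proteins of the stalk, which recruits translation factors to the large subunit, did not move as a block. Rplp2 rose, from 203.2, 138.0, 171.2 and 123.3 CPM in VEH to 171.9, 247.3 and 374.6 (lowest, median, highest) in MYT, with overlapping groups (log2 fold change 0.68 ± 0.197 SE, edgeR adjusted p = 0.00657). For Rplp0 the log2 value was 0.27 ± 0.147 SE (edgeR adjusted p = 0.125). For Rplp1 it was -0.06 ± 0.177 SE (edgeR adjusted p = 0.775). Whether the 3 differ from each other was not tested.

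The 5S RNP proteins Rpl5 and Rpl11, which bind MDM2 when ribosome assembly is disturbed, did not pass the test as deposited, at log2 fold changes of 0.15 ± 0.18 SE (edgeR adjusted p = 0.474) and 0.23 ± 0.192 SE (edgeR adjusted p = 0.311). With copies summed, Rpl5 was at 0.35 with an adjusted p of 0.0496. Rps6 was at 0.38 both ways, with an edgeR adjusted p of 0.0694 as deposited and 0.0186 with copies summed. Rps27a, which is made as a fusion with ubiquitin, rose from 10.54, 11.16, 10.48 and 10.87 CPM in VEH to 10.6, 16.8 and 25.4 (lowest, median, highest) in MYT (log2 fold change 0.66 ± 0.185 SE, edgeR adjusted p = 0.00543). The MYT group's lowest library lay within the VEH range.

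The core genes with a paralog are given as pairs. Rpl22l1, the paralog of the RNA-binding protein Rpl22, rose from 28.6, 21.2, 19.8 and 17.1 CPM in VEH to 31.4, 38.7 and 55.9 (lowest, median, highest) in MYT. The groups did not overlap (log2 fold change 0.94 ± 0.174 SE, edgeR adjusted p = 0.000198). Rpl22 itself was at 0.24 ± 0.163 SE (edgeR adjusted p = 0.216), and no test compared the 2 genes. Per kilobase of exon, Rpl22 stood at mean CPM values of 103.7 (VEH_7) to 271.6 (SPON) over the 6 groups, and Rpl22l1 at 10.9 (VEH) to 31.8 (WT). Rpl22l1 was thus the lower of the pair in every group.

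The other pairs gave smaller values. Rps27 was at a log2 fold change of 0.49 (edgeR adjusted p = 0.0181) and lost the call without VEH replicate 2, 3 or 4. Its paralog Rps27l, a target of p53, was at -0.21 (edgeR adjusted p = 0.201). Rpl39 rose by a log2 fold change of 0.75 (edgeR adjusted p = 0.00211), and Rpl39l, which is known from testis, was at or under 2.17 CPM in every library and was not tested. Rpl36a rose by 0.78 (edgeR adjusted p = 0.00311) with groups that did not overlap. Rpl7l1, a nucleolar relative of Rpl7, was at 0.25 (edgeR adjusted p = 0.0259) and lost the call without VEH replicate 2, 3 or 4. Rps4x was at 0.49 (edgeR adjusted p = 0.0198), a call lost without VEH replicate 2, and the pseudogene-typed Rps4l was at -0.93 (edgeR adjusted p = 0.0868). Rpl3 was at 0.34 (edgeR adjusted p = 0.19) and Rpl10 at 0.26 (edgeR adjusted p = 0.198).

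**Figure D3:**
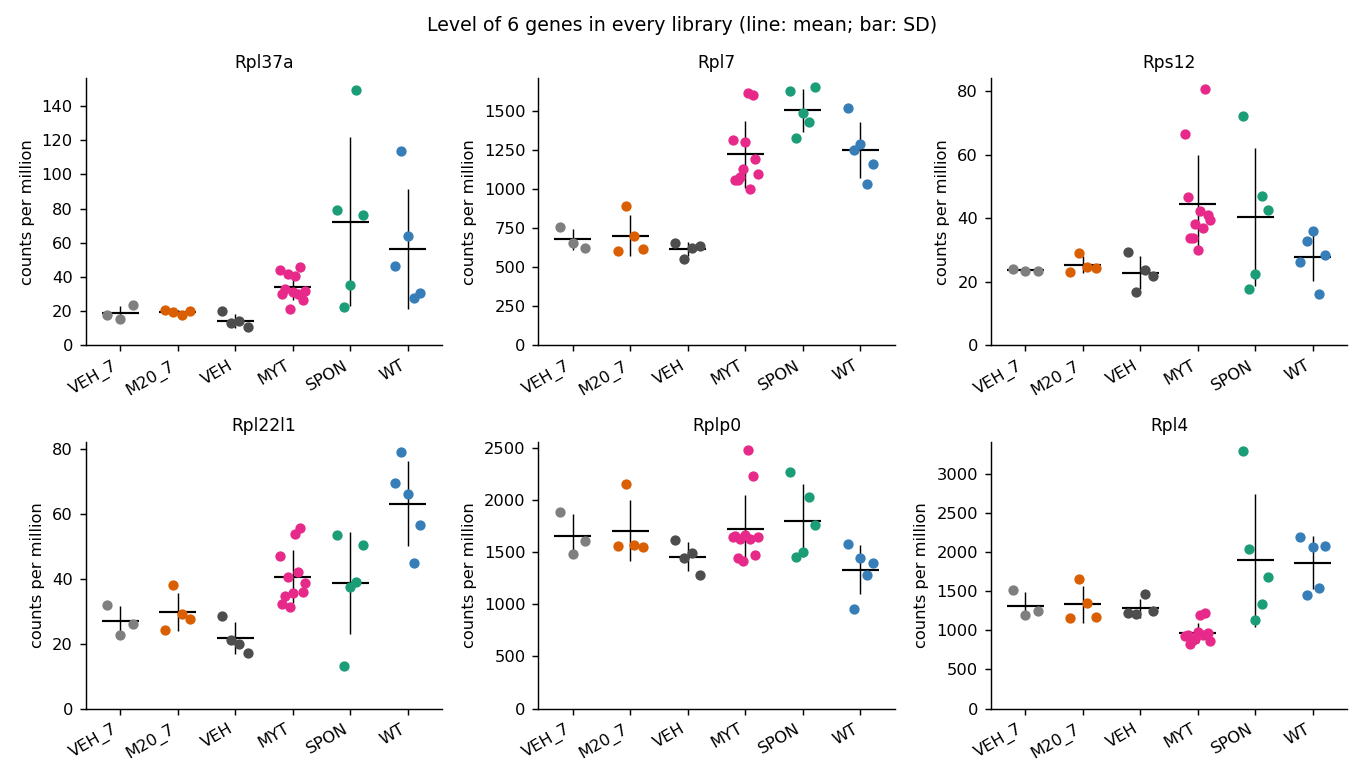
Each panel shows 1 gene as deposited, each point 1 library in CPM by group, with lines for means and bars for SDs. Rpl37a, Rpl7, Rps12 and Rpl22l1 are higher in every MYT than in every VEH library, Rplp0 overlaps, and Rpl4 is lower in MYT; the VEH_7 and M20_7 groups overlap in all 6 panels.

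The copies were also tested in this comparison. Of 187 copies tested as genes of their own, 69 were higher and 4 lower, against 30.5% and 29.0% of all genes, with a median log2 fold change of 0.50. Of 782 other processed pseudogenes, 186 were higher and 115 lower, with a median of 0.13. Over all 187 copies, the higher share was thus near that of all genes and the lower share below it. Of the 62 copies with at least 30000 counts over all libraries, 40 were higher and 2 lower, with a median of 0.54. Of the 125 copies with fewer counts, 29 were higher and 2 lower, with a median of 0.47. The higher share of the 62 was above that of all genes, and that of the 125 was below it. The share of a family's counts on the gene itself separated VEH from MYT in 2 of 73 families (2.74%). In the set titled _7 it separated the groups in 3 of 73 (4.11%).

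Lists of genes around the ribosome are read against the same background of 30.5% of all genes higher and 29.0% lower. Of 17 translation factors and other genes whose messenger RNAs start with a pyrimidine tract, 9 were higher and 2 lower, with a median log2 fold change of 0.46. Eef1b2, the exchange factor of elongation factor 1, was at 1.05 (edgeR adjusted p = 9.7e-06), Btf3, which binds nascent chains, at 0.94 (edgeR adjusted p = 3.15e-05) and Eif3k, an initiation factor subunit, at 0.84 (edgeR adjusted p = 1.3e-05). Of 78 mitochondrial ribosomal protein genes, 44 were higher and 3 lower, with a median of 0.42. Mrpl44 was at 0.90, Mrpl36 at 0.84 and Mrpl3 at -0.89. Of 4 cytosolic ribosomal proteins that the symbol pattern misses (among them Rpsa, Fau and Rack1), 0 were higher and Rpsa was lower (-0.39, edgeR adjusted p = 0.0379).

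The upstream regulators gave mixed directions. Of 12 MYC and mTORC1 regulators tested, 5 were higher and 2 lower, and with 30.5% and 29.0% of all genes called these counts say little about the list. Mtor, the kinase itself, was at -0.73 (edgeR adjusted p = 1.13e-05), Rps6kb2 at 0.68 (edgeR adjusted p = 0.000622) and Eif4ebp2, an inhibitor of cap-dependent initiation, at 0.78 (edgeR adjusted p = 0.00426). Of 6 chaperones of single ribosomal proteins, Aamp (0.66) and Bccip (0.49) were higher and Heatr3, which carries Rpl5, was lower (-0.61, edgeR adjusted p = 0.000777). Of 4 genes of the MDM2 branch, only Mdm4 was called (0.68, edgeR adjusted p = 0.00043).

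Markers of cell types differed widely between the same groups. All 8 epithelial markers were detected, and their summed CPM was 614.7 to 1805 in VEH and 3786 to 9843 in MYT. The summed CPM of 8 mesenchymal markers was 25335 to 43039 in VEH and 2733 to 8248 in MYT. Macrophage markers were at 1555 to 2517 and 561.8 to 1200, endothelial markers at 228.6 to 341.9 and 65.6 to 150.3, and skeletal muscle markers at 73.0 to 944.5 and 1.23 to 6.91. The part of these differences in the members' rise was not tested.

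The difference between treated and vehicle tumours was larger without the suffix than with it for a few members. The difference between the 2 sets in log2 fold change was called for 8 of 85 members, all in the direction of a larger rise without the suffix. The background is 17.0% of genes in that direction and 18.9% in the other, and the members' share was below both. The members' median difference was 0.32 against 0.01 over all genes. The 8 were Rpl37a, Rpl7, Rps12, Rpl22l1, Rpl31, Rpl7a, Rps3a1 and Rps3a2. Rpl37a differed by 1.22 ± 0.293 SE (edgeR adjusted p = 0.0025) and Rpl7 by 0.96 ± 0.217 SE (edgeR adjusted p = 0.00158).

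The other named calls of this difference were lost when single libraries were left out. Rps12, at 0.88 ± 0.332 SE (edgeR adjusted p = 0.0415), lost its call in 10 of 22 leave-one-out fits, and with copies summed its difference was 0.28. Rpl31, a protein at the peptide exit, differed by 0.70 ± 0.264 SE (edgeR adjusted p = 0.0433) and lost its call in 12 of 22. Rpl22l1 differed by 0.79 ± 0.266 SE (edgeR adjusted p = 0.0245) and lost its call without VEH_7 replicate 1, M20_7 replicate 1 or 4, or VEH replicate 3 or 4. The named members that were not called ran from -1.79 ± 0.73 SE for Rps4l (edgeR adjusted p = 0.06) to 0.56 ± 0.292 SE for Rplp2 (edgeR adjusted p = 0.139). The count of 8 itself was 14 without M20_7 replicate 2 and 2 without M20_7 replicate 1 or VEH replicate 4. For these refits the share of all genes called is not given here. Among the other genes, 5 of the 17 with a pyrimidine tract differed in the same direction and 0 in the other, against 17.0% and 18.9% of all genes. Mdm4 also differed in the same direction. Of 78 mitochondrial ribosomal proteins 12 did so and 3 differed in the other direction, among them Mrpl3 (-0.96, edgeR adjusted p = 0.000541), and both shares were below the backgrounds of 17.0% and 18.9%. Of 13 MYC and mTORC1 regulators, 3 differed in the members' direction, among them Eif4ebp2 (0.90, edgeR adjusted p = 0.0187) and Maf1 (0.67, edgeR adjusted p = 0.0191). Mtor differed in the other direction (-0.59, edgeR adjusted p = 0.0068). Of 6 chaperones of single ribosomal proteins, Aamp differed in the members' direction (0.61, edgeR adjusted p = 0.00947) and Heatr3 in the other (-0.71, edgeR adjusted p = 0.026). Lists this small say little against these backgrounds.

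Between the untreated SPON and WT tumours, few ribosomal protein genes differed. Of 84 members tested, 1 (Rpl36a) was higher and 2 (Rpl19 among them) were lower in SPON. The background is 4.52% of genes higher and 3.86% lower, and the members' shares were lower than these in both directions. The members' median log2 fold change was 0.22 against 0.07 over all genes. This lean depended on scaling and on libraries. With library totals in place of TMM the median of all genes moved to -0.15 and that of the members to -0.09, and without SPON replicate 1 the members' median was -0.03. Without the libraries over 10% mitochondrial counts, SPON replicates 1 and 5, it was -0.16.

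Rpl19 and Rpl36a both have a copy with many counts. Rpl19, a large-subunit protein at the peptide exit, was at 61.8, 38.3, 55.2, 50.5 and 66.9 CPM in SPON and 120.3, 139.2, 144.1, 109.8 and 129.2 in WT. The groups did not overlap (log2 fold change -1.23 ± 0.192 SE, edgeR adjusted p = 0.00533), and the call held in all 10 leave-one-out fits. Its leading copy Rpl19-ps11, which differs by G191A, was at -0.03 (edgeR adjusted p = 0.957), and with copies summed Rpl19 was at -0.17 (adjusted p = 0.709).

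Rpl36a, a large-subunit protein, was at 54.0, 14.7, 45.7, 31.4 and 38.5 CPM in SPON and 13.84, 19.25, 13.70, 10.73 and 11.04 in WT. Only SPON replicate 2 lay within the WT range (log2 fold change 1.43 ± 0.334 SE, edgeR adjusted p = 0.0256). The call was lost without WT replicate 1, 3, 4 or 5 and without the libraries over 10% mitochondrial counts, and with copies summed the value was -0.07 (adjusted p = 0.928).

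With each family summed, 3 other core genes were called and none of those called as deposited. Rps12 was at 1.41, Rpl10 at 1.23 (adjusted p = 0.0143) and Rps27 at 1.12 (adjusted p = 0.0187), all higher in SPON, and the background is 4.45% higher and 3.76% lower. As deposited they were at 0.54, 0.63 and 0.25 and were not called. The median absolute difference between the 2 ways of counting was 0.18 over the 76 core genes in this comparison, against 0.04 in MYT against VEH, and the largest, 1.498, was that of Rpl36a.

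**Figure D4:**
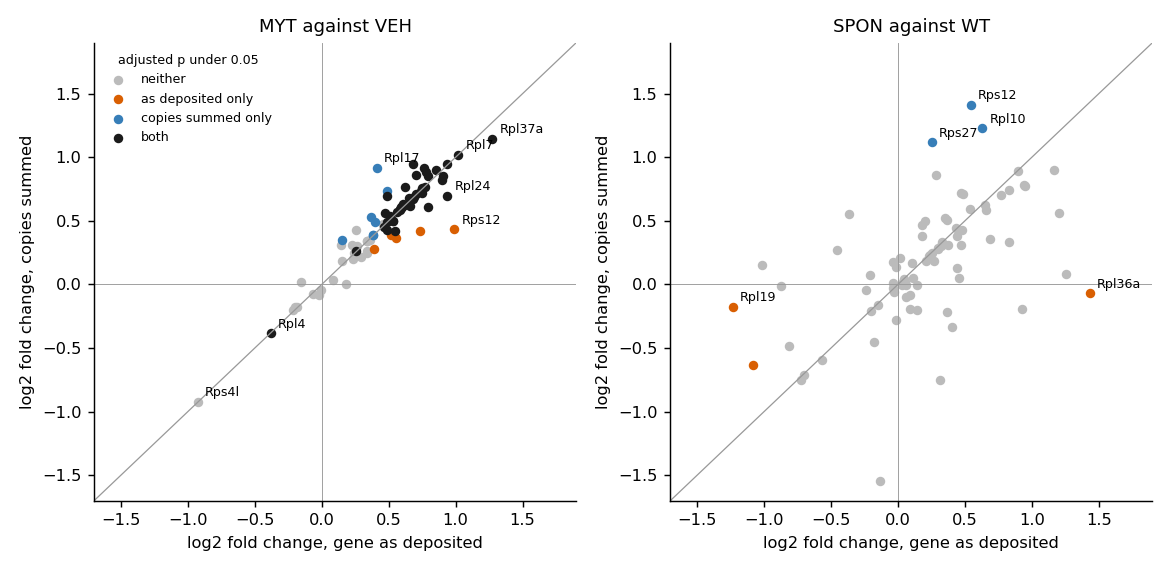
Each point is a core gene or a paralog tested both ways, with the log2 fold change of the gene as deposited on the horizontal axis and of the gene with its copies summed on the vertical axis; the line marks equal values and colours mark calls at an edgeR adjusted p under 0.05. For MYT against VEH the points follow the line, with 41 core genes called both ways, and for SPON against WT they scatter around it, with 3 core genes called each way and none both ways.

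Some copies differed between SPON and WT. Rpl10-ps3, identical to Rpl10 over the coding sequence as printed above, was at 54.3 to 124.3 CPM in SPON and at 6.39 to 14.1 in WT, a log2 difference of 3.43 ± 0.312 SE (edgeR adjusted p = 0.000633). In the other groups it was at 13.8 to 25.7 (VEH_7), 15.7 to 27.6 (M20_7), 42.5 to 51.1 (VEH) and 24.7 to 102.8 (MYT). Rps12-ps3 was at 1.54 (edgeR adjusted p = 0.0242), Rps27rt at 1.14 (edgeR adjusted p = 0.017) and Rps15a-ps5 at 1.36 (edgeR adjusted p = 0.00737). Gm13436, a copy of Rpl18, was at -1.03 (edgeR adjusted p = 0.018). Of 252 copies tested, 7 were higher and 24 lower in SPON, against 4.52% and 3.86% of all genes, so the higher share was below the background and the lower share above it. Of 758 other processed pseudogenes, 8 were higher and 23 lower. The 62 copies with at least 30000 counts had a median log2 fold change of 0.19, the 190 with fewer counts one of -1.02, and the other processed pseudogenes one of -0.06.

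The split of a family's counts between gene and copy also separated SPON from WT. In 18 of 73 families (24.7%) the gene's own percentage did not overlap between SPON and WT, higher in SPON in 13 and lower in 5. Rpl10 held 36.1 to 53.9% of its family's counts in SPON and 58.9 to 67.9% in WT. Rpl19 held 5.57 to 10.4% in SPON and 14.2 to 17.1% in WT. Rpl36a held 8.03 to 14.4% in SPON and 3.48 to 4.88% in WT. For Rpl19 and Rpl36a the WT libraries also lay outside the range of the VEH_7, M20_7, VEH and MYT groups, which were at 5.38 to 12.0% and 7.48 to 16.3%. For Rpl10, VEH_7 (53.9 to 62.0%) and M20_7 (56.4 to 62.6%) overlapped with WT. The groups compared differ in size, and no p-value is given for these shares.

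**Figure D5:**
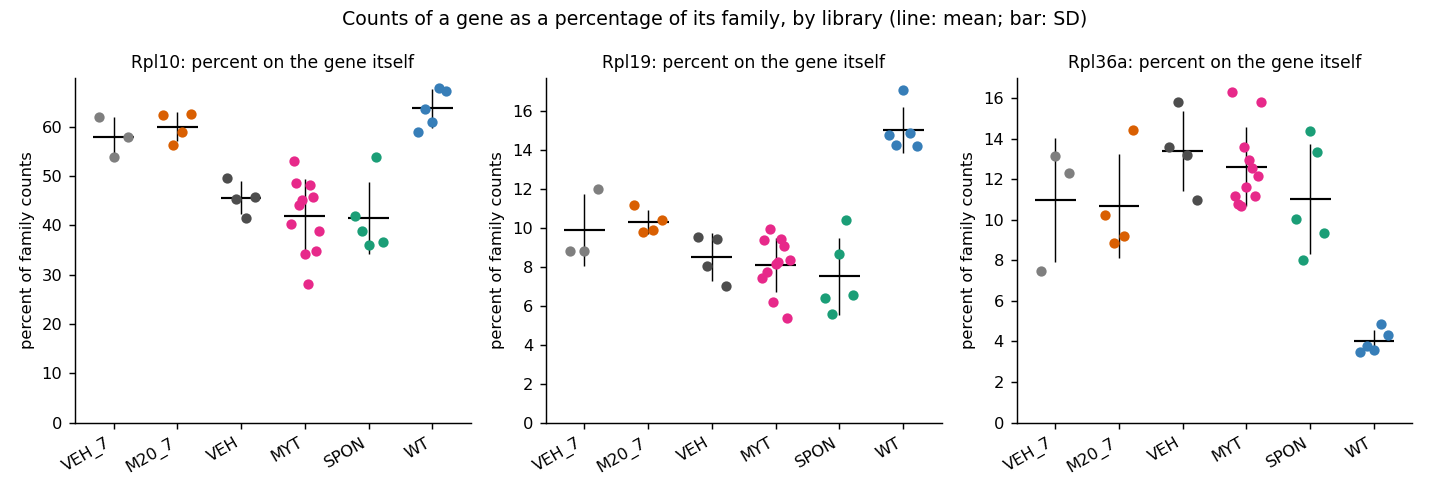
Each panel shows, for 1 family, the percentage of the counts of gene and copies that lay on the gene itself, each point 1 library by group, with lines for means and bars for SDs. In the panels of Rpl19 and Rpl36a the 5 WT libraries stand apart from all other groups; for Rpl10 they lie above SPON, VEH and MYT and overlap the VEH_7 and M20_7 groups.

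The other named members did not pass the test between SPON and WT, and lay between -0.70 (Rpl22l1) and 0.65 (Rpl22). Rplp0 was at 2270, 1450, 1505, 2026 and 1764 CPM in SPON and 1578, 953.4, 1447, 1284 and 1399 in WT, with overlapping groups (log2 fold change 0.44 ± 0.259 SE, edgeR adjusted p = 0.3). Rpl22 was at 0.65 ± 0.323 SE and Rpl22l1 at -0.70 ± 0.33 SE (edgeR adjusted p = 0.224 and 0.199), so the pair pointed in opposite directions without either being called. Rps27l was at 171.7 ± 104.7 CPM (SD, n = 5) in SPON and 190.9 ± 79.7 (SD, n = 5) in WT (edgeR adjusted p = 0.854). Of the other lists, 1 of 17 genes with a pyrimidine tract was higher (Pabpc1, the poly(A)-binding protein, at 1.55, edgeR adjusted p = 0.0105). So were 3 of 78 mitochondrial ribosomal proteins. With 4.52% of all genes higher and 3.86% lower, these counts were near the background and say little about the lists. Of the 4 genes of the MDM2 branch, Cdkn1a, a p53 target that blocks the cell cycle, was lower at -1.81 (edgeR adjusted p = 0.0111). Trp53 was lower at -2.89 ± 0.707 SE (edgeR adjusted p = 0.031). This is a difference between the groups, and the level of Trp53 in single SPON libraries is not given here.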

How the data were processed

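Whole-number read counts were deposited by the authors for 54532 Ensembl genes in 33 libraries. The submitters' processing notes name STAR 2.7.10a, HTSeq and edgeR, and GRCm38 as the build. Kit, strandedness, annotation release and the treatment of reads that match several places are not given in the sources used here. A deposited table of log2 CPM was not used here.

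Libraries were grouped by title and treatment label, with replicates numbered in accession order. The library whose labels contradict each other was left out of the groups. Each comparison was fitted on its own groups with the quasi-likelihood test of edgeR 4.0.16 (R 4.3.3), TMM scaling and filterByExpr, and Benjamini-Hochberg adjusted p under 0.05 over all genes tested was a call. The filter on low counts left out Rpl39l in the 2-group comparisons. Standard errors were taken from the F statistic. CPM in the text used TMM over the 32 grouped libraries.

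Copies were found by aligning each core coding sequence to GENCODE M21 transcripts with blastn 2.17.0. All 85 members had an entry there. Simulated counts with 200 changed genes were used to test the fits.

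The rule for named members took the stalk, the 5S RNP, Rps6, Rps27a and the core genes with paralogs throughout. Per comparison, the 5 highest and 5 lowest changes among called members whose average log2 CPM reached 1 were added, with up to 3 called genes of each further list. Genes named for their copies (Rps7 and others) were chosen after their values had been seen. The members and lists were chosen with earlier results of these data known. Alternatives were other scalings, no filter, DESeq2 1.42.0, limma voom (limma 3.58.1), 1 fit over 32 libraries and each library left out. Counts with copies summed and without libraries of high mitochondrial share were added after the data had been seen. Some genes that these rules name are not reported here.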

Additional observations from a re-analysis of the deposited data

Results flagged for a closer look

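The level of each member that the rule named in any comparison, and the members' summed level, were compared within every group of 4 to 10 libraries by the gap of the highest or lowest library to its nearest neighbour, relative to the group's range. Of 112 such groups of values, 9 had a library beyond the limit that chance passes in about 1 of 20. As some libraries were highest or lowest for most core genes at once, these groups of values are not independent. M20_7 replicate 2 stood apart 4 times: Rplp0 at 2150 CPM against 1546 to 1570 in the other libraries, Rplp1 at 721.0 against 446.7 to 487.2, Rplp2 at 173.8 against 136.8 to 139.8, and Rpl39l at 0.451 against 0 to 0.0381. M20_7 replicate 1 was low for Rps27a, at 7.28 CPM against 10.9 to 11.2. Among the VEH libraries, Rpl4 was at 1462 CPM in replicate 3 against 1206 to 1241, and Rps27 at 6.92 in replicate 1 against 4.35 to 4.71. In SPON replicate 1, Rps27a was at 24.2 CPM against 15.81 to 18.02. In WT replicate 1, Rps4l was at 3.002 CPM against 0.345 to 1.04.

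The difference between treated and vehicle tumours was unequal in the 2 sets for 5 named members, by edgeR's test of the difference in log2 fold change. Rpl37a differed by 1.22 (SE 0.293, adjusted p = 0.0025), Rpl7 by 0.96 (SE 0.217, adjusted p = 0.00158), Rps12 by 0.88 (SE 0.332, adjusted p = 0.0415), Rpl22l1 by 0.79 (SE 0.266, adjusted p = 0.0245) and Rpl31 by 0.70 (SE 0.264, adjusted p = 0.0433). All were larger in the set without the suffix.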

How the results depend on the processing

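For 86 pairs of a named member and a comparison, 2010 values were recomputed under alternatives. Of these, 1922 kept their direction and their side of the threshold, 64 lost a call, 23 gained one and 1 reversed, which was Rpl36a for SPON against WT with copies summed (-0.067). No member was called for the set titled _7 in any of the 7 leave-one-out fits.

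For MYT against VEH, the number of members higher was 36 to 54 when single libraries were left out, 59 with library totals and 31 in 1 fit over 32 libraries, against 50. The number lower was 1 to 2 when single libraries were left out, 2 with limma voom and 0 in 1 fit over 32 libraries, against 1.

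For SPON against WT, the number higher was 0 to 6 when single libraries were left out, 6 with DESeq2, 14 in 1 fit over 32 libraries and 3 with copies summed, against 1. The background of 4.52% higher and 3.86% lower belongs to the fit on the 2 groups and cannot be set beside the other fits. It was 0 without SPON replicates 1 and 4 and 0 without the libraries over 10% mitochondrial counts. The number lower was 1 to 4 when single libraries were left out, 6 with library totals, 8 in 1 fit over 32 libraries and 0 with copies summed, against 2. It was 4 without SPON replicates 1 and 4 and 4 without the libraries over 10% mitochondrial counts. The single libraries that decided the extremes were SPON replicate 2 (6 higher), WT replicates 1, 3, 4 and 5 (0 higher) and SPON replicate 1 (4 lower).

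For the difference between sets, the number higher was 2 to 14 when single libraries were left out, 5 with upper-quartile scaling, 5 without a filter and 1 in 1 fit over 32 libraries, against 8. The number lower was 0 to 1 when single libraries were left out, 1 with DESeq2 and 2 with limma voom, against 0. The cause of these changes was not tested. In every comparison, the share of all genes called under an alternative is given only for copies summed. The other counts thus show how the members' calls moved, not whether they exceeded a background.

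Replicate numbers follow accession order, so no paired analysis was possible because no label pairs the libraries. Members with few counts of their own carry the most counting error, such as Rpl24 at 1.64 to 6.23 CPM.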

Other observations

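The library that entered no comparison, titled as vehicle and labelled as treated, had 1.77% of its counts on the members. By its library total, Rplp0 was at 1534 CPM, Rpl7 at 504.2, Rpl4 at 1344, Rpl37a at 17.4, Rpl22l1 at 21.98, Rpl19 at 42.7 and Rpl36a at 23.2. These values were scaled differently from the CPM of the grouped libraries and are not compared with them.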
